A study of Homo sapiens with 20 samples.

Results

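MYCN and 4 genes that lie near it on the short arm of chromosome 2 (2p24), namely MYCNOS, DDX1, NBAS and CYRIA, were followed with and without nutlin-3 in the human neuroblastoma line NGP. The 5 genes were chosen by name from the locus, out of 34439 mRNA and lncRNA genes that had a transcript in the files. Earlier results of these data were known when they were chosen. All 5 were detected and tested. RNA-seq had been made from poly(A) RNA of 10 samples treated with nutlin-3 at 8 µM (a racemic mixture) and of 10 samples treated with ethanol as vehicle, described as biological replicates of the line. Nutlin-3 is a small molecule that keeps MDM2 from binding p53. The time of treatment was not given in the sources used here, and both groups are of 1 cell line.

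MYCN is a transcription factor of the MYC family. It pairs with MAX and binds E-box sequences at genes of growth, ribosome production and metabolism, and extra copies of it mark aggressive neuroblastoma. The amplified stretch often takes in its neighbours, so their RNA is read together with that of MYCN in this tumour. MYCNOS is a lncRNA transcribed from the opposite strand across the start of MYCN. DDX1 is a DEAD-box RNA helicase and a subunit of the tRNA ligase complex. NBAS takes its name from neuroblastoma and is part of the NRZ tether, which brings Golgi vesicles back to the endoplasmic reticulum. CYRIA, earlier called FAM49A, binds the GTPase RAC1 and holds back the WAVE complex, which builds branched actin. Copy number was not measured in these files.

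In GRCh38 with the annotation of GENCODE release 44, NBAS lay on the minus strand at chr2:15166916-15561340 and DDX1 on the plus strand at chr2:15591178-15634346. MYCNOS lay on the minus strand at chr2:15918350-15942249, MYCN on the plus strand at chr2:15940550-15947007 and CYRIA on the minus strand at chr2:16549459-16666331. From the start of MYCN to the start of each gene, the distance was 1.70 kb for MYCNOS, 349 kb for DDX1, 379 kb for NBAS and 726 kb for CYRIA. The files held 22 transcripts of the 5 genes, with 1 for MYCN, 1 for MYCNOS, 8 for DDX1, 7 for NBAS and 5 for CYRIA. For MYCNOS this was MYCNOS-201, whose exon 1 (chr2:15941532-15941729) and exon 2 (chr2:15940974-15941097) lay inside intron 1 of MYCN and whose exon 3 (chr2:15939898-15940351) ended before MYCN began. Its exons shared 0 bases with the exons of MYCN-201. The quantified MYCN-201 had 2602 bases against 2613 in release 44, and MYCNOS-201 had 770 against 776. The libraries kept the strand, but whether the quantification used it was not given in the sources used here, so reads from intron 1 of MYCN and from exons 1 and 2 of MYCNOS cannot be told apart.

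The 250 bases before the start of MYCN (chr2:15940300-15940549, plus strand, GRCh38.p14, from RefSeq) are shown because E2F factors, which are known to act on this promoter, were among the genes that fell. Whether the fall of the E2F genes bears on that of MYCN was not tested. Capitals mark the letters that matched an E2F motif.
MYCN promoter: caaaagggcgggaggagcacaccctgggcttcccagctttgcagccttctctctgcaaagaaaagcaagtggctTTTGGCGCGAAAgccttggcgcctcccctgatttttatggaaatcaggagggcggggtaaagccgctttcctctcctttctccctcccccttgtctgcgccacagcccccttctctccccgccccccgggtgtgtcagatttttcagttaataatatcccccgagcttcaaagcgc
The motifs searched were TTTGGCGC, TTTCGCGC and TTTCCCGC on both strands. The match to TTTGGCGC ran from base 176 to base 169 before the start on the plus strand, and the match to TTTCGCGC ran from base 172 to base 165 on the minus strand, so that the matches overlapped. Of 35116 promoters of the same length, 816 (2.32%) held at least 1 of these motifs. The promoters of MYCNOS (2 entries), DDX1 and NBAS held 0 matches. The E-box CACGTG had 0 matches in the promoters of these 4 genes and was in 6.34% of all promoters. CYRIA had no entry.

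MYCN was among the most abundant RNAs of vehicle-treated NGP cells. Levels between genes are given in TPM, a unit corrected for transcript length and for depth. In vehicle samples MYCN had 1314 TPM at the lowest, 1685 at the median and 1726 at the highest, with a mean of 1620 ± 128 (SD, n = 10). It ranked 76th among the 34439 genes. MYCN took 0.356% of all counts matched to the annotation in vehicle samples (from 0.305% to 0.394% by sample) and 0.306% in nutlin samples (from 0.283% to 0.322%). On this scale, with no TMM factor and no length, the groups overlapped.

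The neighbours were expressed at lower levels than MYCN. DDX1 had between 164.6 and 190.1 TPM in vehicle samples, with a mean of 181 ± 7.73, and ranked 640th. MYCNOS had between 88.2 and 113 TPM with a mean of 100.3 ± 7.0, which placed it 40th among 14876 lncRNAs. Within a sample, the TPM of MYCN was on average 16.2-fold that of MYCNOS and 8.97-fold that of DDX1. Thus the helicase and the antisense RNA were both near the top of their class, and both far under MYCN.

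CYRIA and NBAS were the least abundant of the 5 in vehicle samples. CYRIA had between 22.5 and 32.6 TPM, with a mean of 27.7 ± 3.02 and rank 4193. NBAS had between 19.8 and 21.9 TPM, with a mean of 20.9 ± 0.798 and rank 5181. Neighbours in the order MYCN, DDX1, MYCNOS, CYRIA and NBAS did not overlap in TPM, although the lowest CYRIA sample and the highest NBAS sample lay close. In nutlin samples CYRIA moved up to the place after MYCN, with a mean of 247 ± 11.8 TPM and rank 323, and the order of the other 4 genes was kept with no overlap between neighbours.

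**Figure D1:**
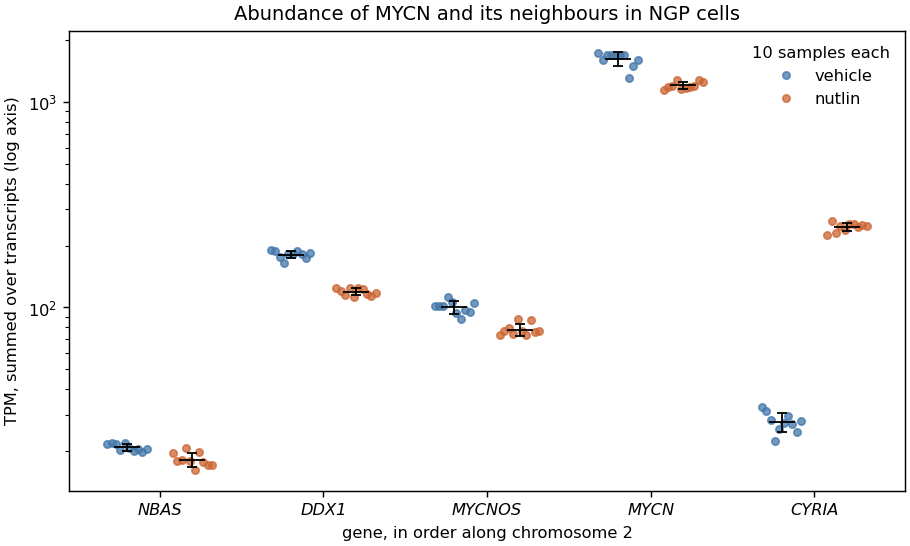
Abundance of the 5 genes in TPM on a log axis, with 1 point per sample, vehicle in blue and nutlin in orange (10 samples each), and the mean ± SD in black. MYCN is highest in both groups, and CYRIA goes from a mean of 27.7 to a mean of 247 TPM.

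Of the 5 genes, 3 were lower with nutlin (MYCN, MYCNOS and DDX1), 1 was higher (CYRIA) and NBAS was not called at 5% FDR. These calls are read against all 27697 genes tested with edgeR, of which 58.8% were called, 32.3% as higher and 26.5% as lower. When genes had to average 1 CPM or more (CPM is a count scaled to the size of its library), 80.2% of the 15168 left were called, 34.8% as higher and 45.3% as lower, so that a call alone says little in this dataset and the size of each change is given below. The values of a sample did not overlap between the groups for 28.8% of all genes and for 3 of the 5 (MYCN, DDX1 and CYRIA). In bulk RNA, fewer cells that express a gene and less RNA per cell cannot be told apart.

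MYCN fell by 24.6% with nutlin and stayed abundant. Normalised read counts of MYCN were between 3467 and 4243 CPM in vehicle samples (median 3695) and between 2586 and 3000 CPM in nutlin samples (median 2957). On this TMM-scaled measure every nutlin sample was under every vehicle sample. The log2 fold change (LFC) was -0.41 (SE 0.039, 95% interval -0.48 to -0.33, edgeR adjusted p = 2.45e-10). The estimated counts behind these values were large, from 41161 to 69357 per sample. Mean TPM went from 1620 to 1203, and MYCN still ranked 99th among all genes with nutlin. Among the 15168 genes of at least 1 CPM, 4493 had a lower LFC.

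MYCNOS, the antisense neighbour, was lower as well. It had between 47.9 and 71.6 CPM in vehicle samples (median 59.3) and between 41.7 and 57.2 CPM in nutlin samples (median 44.4). The groups overlapped on the CPM scale, and on the TPM scale the highest nutlin sample (87.6) lay just under the lowest vehicle sample (88.2). The LFC was -0.34 (SE 0.063, 95% interval -0.46 to -0.22, edgeR adjusted p = 2.61e-05). The ratio of MYCNOS to MYCN within a sample was compared directly. Its log2 value, from estimated counts, was -6.01 ± 0.137 in vehicle and -5.95 ± 0.123 in nutlin samples, a difference of 0.07 (SE 0.058). The mean ratios of the groups were not told apart (two-sided permutation test, p = 0.279, adjusted p = 0.279 over 2 ratios).

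DDX1, the helicase, fell further than MYCN. It had between 358 and 444 CPM in vehicle samples (median 380.2) and between 233 and 267 CPM in nutlin samples (median 254), with no overlap. The LFC was -0.61 (SE 0.036, 95% interval -0.68 to -0.54), a change of -34.5% (edgeR, adjusted p = 3.11e-15). Within a sample the log2 ratio of DDX1 to MYCN went from -3.31 ± 0.141 to -3.51 ± 0.0743, a difference of -0.20 (SE 0.050, two-sided permutation test, p = 0.00018, adjusted p = 0.00036 over 2 ratios). DDX1 therefore fell relative to MYCN in the mean, while single samples overlapped. The TPM ratio of MYCN to DDX1 was 7.23 to 10.2 in vehicle and 9.19 to 11.3 in nutlin samples. The highest vehicle value of 444 CPM came from vehicle replicate 10, which also had the lowest MYCN level of its group. On the TPM scale DDX1 in that sample (181.7) lay inside the range of the other vehicle samples. Without that sample the LFC of DDX1 was -0.56, and the ratio was not tested without it.

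NBAS, whose start lies 29.8 kb from that of DDX1, was not called. It had between 97.3 and 113 CPM in vehicle samples (median 103.7) and between 94.3 and 119 CPM in nutlin samples (median 104.5), so that the nutlin range enclosed the vehicle range. The LFC was 0.02 (SE 0.037, 95% interval -0.05 to 0.09, edgeR adjusted p = 0.673). This value depended on the processing. With an offset for the effective length of the gene it was -0.20 (adjusted p = 0.00058), and with the filterByExpr filter on low counts it was 0.10 (adjusted p = 0.0169). Mean TPM of NBAS went from 20.9 ± 0.798 to 18.2 ± 1.38, with overlap of the groups. The TPM ratio of DDX1 to NBAS within a sample was 8.16 to 9.38 in vehicle and 6.04 to 7.69 in nutlin samples, with no overlap.

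CYRIA, the RAC1 binding protein, rose 8.29-fold. It had between 68.3 and 78.5 CPM in vehicle samples (median 71.7) and between 546 and 642 CPM in nutlin samples (median 610.5). The groups were far apart, with the lowest nutlin sample well above the highest vehicle sample. The LFC was 3.05 (SE 0.039, 95% interval 2.97 to 3.13, edgeR adjusted p = 6.08e-31). Among the 15168 genes of at least 1 CPM it was the 254th highest. MDM2, the gene of the protein that nutlin-3 binds and a target of p53, went from 245 to 5564 CPM (LFC 4.51), which checks the treatment labels.

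The transcripts within each gene did not all move alike. Of the 22 transcripts, 19 could be tested and 12 made up at least 5% of their gene's TPM in either condition. Of these 12, 5 were higher and 5 lower with nutlin at 5% FDR, where 23.3% of all 119877 transcripts tested were called. That share takes in every transcript with at least 1 count in each condition. The 12 were not set against transcripts of like abundance. The share of a transcript within its gene was tested for 13 transcripts, and 3 were called (NBAS-206, CYRIA-202 and DDX1-202) against 7.93% of all 45742 shares tested. That test sets the change of a transcript in estimated counts against that of its gene. Its coefficient, in natural log, is therefore not the change of a TPM share. The split of reads between transcripts of a gene is an estimate of kallisto, and its error is not in the files.

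In NBAS the full-length transcript rose while a shorter one fell. NBAS-201 has 52 exons and was quantified with 7281 bases (7278 in release 44). NBAS-206 has 28 exons and 4391 bases, begins inside exon 23 of NBAS-201 and goes on with exon 26, so that it lacks exons 24 (chr2:15417527-15417712, 186 bases) and 25 (chr2:15415546-15415719, 174 bases). Together these exons hold 360 coding bases, or 120 codons. Its other 27 exons are those of NBAS-201. The junctions are shown because they tell the transcripts apart, as do exons 24 and 25 and the exons before them. Each line gives 30 coding bases on either side, read along the minus strand from the GRCh38 genome, with the bases after the junction in capitals.
NBAS-206, exon 1 to exon 2 (chr2:15424315-15424344 to chr2:15402272-15402301): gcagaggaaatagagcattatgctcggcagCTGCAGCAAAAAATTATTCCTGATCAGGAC
NBAS-201, exon 23 to exon 24 (chr2:15424315-15424344 to chr2:15417683-15417712): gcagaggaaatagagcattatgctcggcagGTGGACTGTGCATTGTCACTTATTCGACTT
NBAS-201, exon 25 to exon 26 (chr2:15415546-15415575 to chr2:15402272-15402301): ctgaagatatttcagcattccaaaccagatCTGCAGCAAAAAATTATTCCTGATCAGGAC
The junction of NBAS-206 was not found in the sequence of NBAS-201.

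NBAS-206 had between 5.05 and 7.17 TPM in vehicle samples (median 6.01) and between 0.0278 and 2.74 TPM in nutlin samples (median 1.32). Every nutlin sample was under every vehicle sample, and the estimated counts went from between 314 and 461 to between 1.67 and 171. Its LFC was -2.25 (SE 0.468, edgeR adjusted p = 0.000786), and it was -2.62 with the replicate number as a block and -3.12 with limma voom. Its share of the TPM of NBAS went from 28.6% ± 3.17 to 6.53% ± 4.98. The nutlin shares fell apart into low and higher values. Nutlin replicates 2, 7 and 11 had 0.156%, 0.575% and 0.551%, and the other nutlin samples had 6.26% to 14.1%. The share test, made on estimated counts, gave a coefficient of -1.58 (natural log, edgeR adjusted p = 3.26e-08). NBAS-201 had between 9.05 and 13.2 TPM in vehicle samples (median 11.1) and between 12.9 and 16.4 TPM in nutlin samples (median 14.2), and its LFC was 0.36 (SE 0.050, edgeR adjusted p = 5.19e-06). Its share of NBAS was 54.5% ± 5.45 and then 78.6% ± 6.59, although the test of that share was not passed (adjusted p = 0.209). A count assigned to the longer NBAS-201 adds less TPM than one assigned to NBAS-206, and the NBAS sum was level on the CPM scale and lower on the TPM scale. NBAS-205, a short transcript of the 3′ end, had 3.17 ± 1.12 and 2.19 ± 0.73 TPM and was not called (adjusted p = 0.218).

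DDX1 was made up mainly of DDX1-201 and DDX1-208, which were quantified as transcripts of 2739 and 2183 bases. Release 44 gives them 2484 and 2312 bases, so its exons are not those that were quantified, and the exons are not described here. Both fell. DDX1-201 had between 80.9 and 97.1 TPM in vehicle samples and between 57.9 and 67.8 TPM in nutlin samples (LFC -0.49, SE 0.045, edgeR adjusted p = 1.48e-08). DDX1-208 had between 71.9 and 85.7 TPM in vehicle samples and between 38.5 and 48.9 TPM in nutlin samples (LFC -0.84, SE 0.052, edgeR adjusted p = 1.23e-11). The share of DDX1-208 was 43.4% ± 2.36 and then 35.8% ± 2.62, but the change was not called (adjusted p = 0.156). DDX1-205 had 6.17 ± 1.62 and 7.0 ± 2.0 TPM and was not called (adjusted p = 0.475). DDX1-202 was a minor transcript of 1.39 ± 1.07 TPM and then 1.88 ± 1.14 TPM, with 3 samples at 0 counts, and its higher share (adjusted p = 0.0318) was not kept when the replicate number was taken as a block (adjusted p = 0.0551), with a looser filter (adjusted p = 0.0542) or without vehicle replicate 10 (adjusted p = 0.0885). It is named here after its value was seen.

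All 4 main transcripts of CYRIA rose. CYRIA-201, the longest, had between 12.6 and 16.7 TPM in vehicle samples (median 14.6) and between 99.6 and 118 TPM in nutlin samples (median 115), with an LFC of 2.99 (SE 0.040, edgeR adjusted p = 1.21e-22). CYRIA-202 carries an extra exon near its 5′ end (chr2:16622939-16623137) and a shorter last exon. It had between 3.94 and 9.34 TPM in vehicle samples (median 5.57) and between 59.6 and 78.7 TPM in nutlin samples (median 69.3), with an LFC of 3.61 (SE 0.129, edgeR adjusted p = 9.62e-16). Its share of the TPM of CYRIA went from 20.9% ± 5.31 to 28.0% ± 1.81. The share test, made on estimated counts, gave a coefficient of 0.37 (natural log, edgeR adjusted p = 0.00104). The highest vehicle share of CYRIA-202 (34.4%) lay above every nutlin sample and came from vehicle replicate 10, and without that sample the coefficient was 0.45. The call was weaker in the edgeR share test with the replicate number as a block (adjusted p = 0.0107). With the looser filter it was near the limit (adjusted p = 0.0497). CYRIA-204 and CYRIA-203, which use other first exons, had LFCs of 3.53 (4.12 with limma voom) and 2.35, with 1 vehicle sample each at 0 counts.

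**Figure D2:**
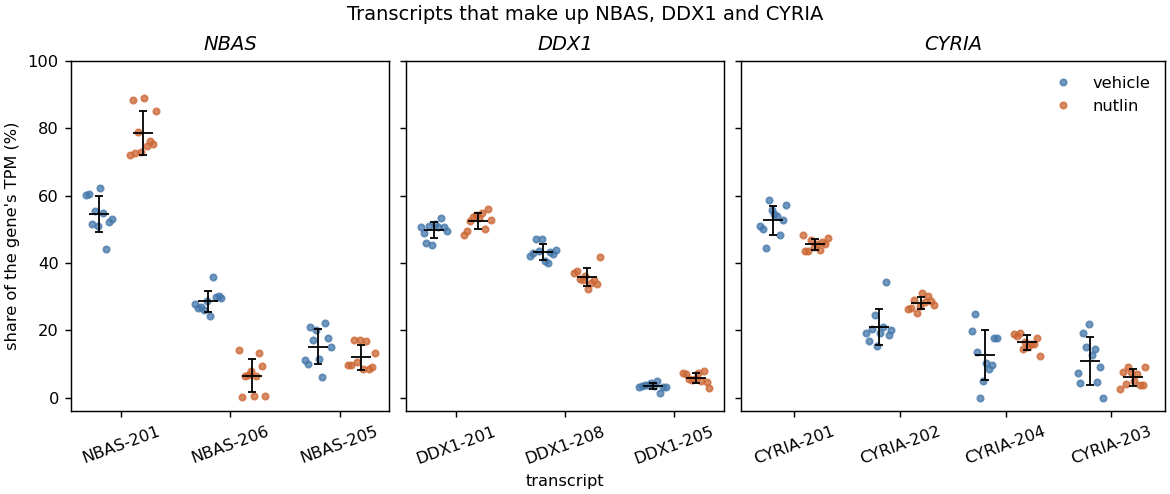
Share of each main transcript in the TPM of NBAS, DDX1 and CYRIA (in percent), with 1 point per sample, vehicle in blue and nutlin in orange (10 samples each), and the mean ± SD in black. NBAS-206 goes from a mean of 28.6% to a mean of 6.53% with no overlap, and NBAS-201 from 54.5% to 78.6%.

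The wider locus was examined to see whether the changes of the 5 genes were shared by genes around them. Within 2 Mb of the start of MYCN the annotation placed 31 mRNA and lncRNA genes with a transcript in the files. Of these 28 were tested, 15 rose and 8 fell, where 32.3% of all genes tested rose and 26.5% fell. Of the 14 with a mean of at least 1 CPM, 6 rose, 7 fell and NBAS was not called, or 92.9% called. That mean was over both groups, so a gene could pass through 1 group alone and was then bound to differ. Among all genes at that level 80.2% were called, 34.8% as higher and 45.3% as lower, so these counts alone say little about the locus. Both directions were found on either side of MYCN. Apart from MYCNOS, the genes nearest to MYCN did not share its direction. MYCNUT, a lncRNA that starts 20.2 kb before MYCN, rose from 0.404 to 2.52 CPM (LFC 2.61), and GACAT3, a lncRNA 73.4 kb after it, rose from 1.02 to 2.26 CPM (LFC 1.14). With nutlin they reached 2.94 ± 0.544 and 3.60 ± 0.786 TPM, far under MYCN and MYCNOS.

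On the side of NBAS and DDX1, LRATD1 rose from 39.7 to 121 CPM (LFC 1.61) at a distance of 1308 kb and the lncRNA LINC00276 rose from 1.56 to 2.01 CPM (LFC 0.36, adjusted p = 0.0327). On the side of CYRIA, the lncRNA ENSG00000223536 starts 788 kb from MYCN and 61.8 kb from the start of CYRIA, on the opposite strand to CYRIA, and rose from 0.633 to 6.17 CPM (LFC 3.26). Beyond it, 4 genes fell at distances of 1599 to 1937 kb. These were VSNL1, a neuronal calcium sensor (LFC -1.72), GEN1, a nuclease that resolves DNA junctions (LFC -1.21), SMC6, a subunit of a chromosome maintenance complex (LFC -0.59), and KCNS3, a potassium channel subunit (LFC -2.85). MYCNUT and ENSG00000223536 were below 1 CPM in vehicle samples, and KCNS3 was below it in nutlin samples (0.272 CPM). They reached a mean of 1 CPM only through the group where they were high. The 14 tested genes with a mean below 1 CPM included 9 that rose and 1 that fell, where 29.1% of all genes at that level rose.

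**Figure D3:**
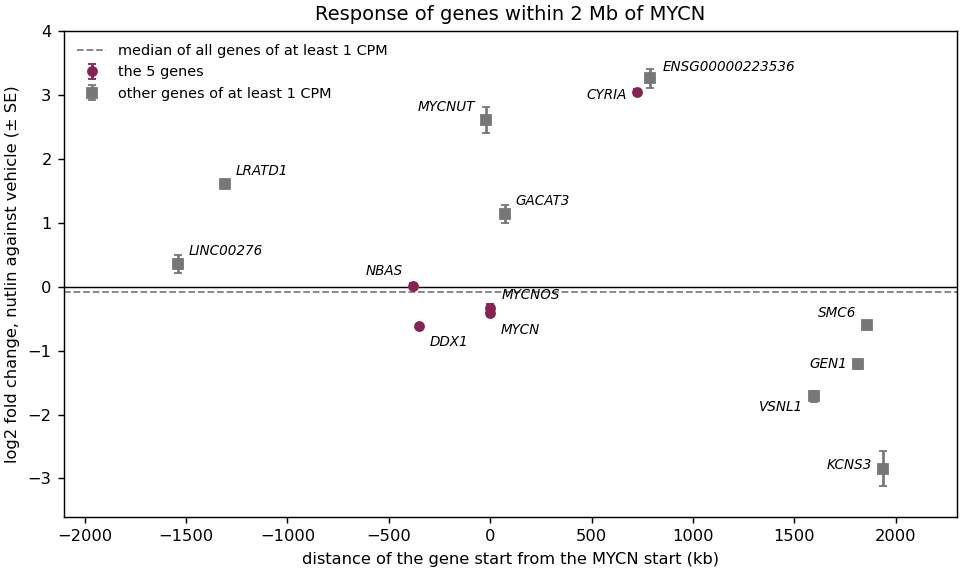
Log2 fold change of the 14 genes within 2 Mb of MYCN with a mean of at least 1 CPM (± SE), against the distance of their start from that of MYCN in kb, with the 5 genes as circles and the others as squares. CYRIA and ENSG00000223536 lie together at the top, and MYCN, MYCNOS and DDX1 lie just under 0.

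The partners and targets of MYCN were described next, as lists of genes with no test of a list as a whole. The lists were drawn up with earlier results of these data known, so their counts are descriptive only. The median LFC was 0.19 over all genes tested and -0.08 over the genes of at least 1 CPM, of which 45.3% were called lower and 34.8% higher. Up to 3 genes with the largest changes are named in each list, and where 5 or fewer genes went against the rest they are named as well, a choice made after their values were seen.

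In a list of MYC family genes, MAX, its partners and other factors that work with them or in a related network, 4 of 14 genes rose and 7 fell. The other 3 (MYCL, MGA and TRRAP) were not called, and the median LFC was -0.07. MAX, with which MYCN pairs, was counted as lower at an LFC of only -0.09 (edgeR adjusted p = 0.0428). Over the alternatives 6 to 7 genes of this list fell. MYCN was by far the most abundant member of its family in both groups. MYC, its closest relative, had 0.328 ± 0.0689 TPM in vehicle and 1.90 ± 0.798 TPM in nutlin samples (LFC 2.61), and MYCL had 1.74 ± 0.37 and 2.03 ± 0.357 TPM. MXD4, which competes for MAX and represses, rose (LFC 1.29) together with MXD1 and ZBTB17, whereas its relative MXD3 fell (LFC -1.68).

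Of 9 genes for enzymes that govern the stability of the MYCN protein, 6 fell and 3 (FBXW7, TRIM32 and GSK3B) rose, with a median LFC of -0.45. CCNB1 (LFC -3.06), PLK1 (LFC -2.68) and AURKA (LFC -2.59) had the largest changes. AURKA binds MYCN and shields it from the ubiquitin ligase FBXW7, and all 3 are also genes of mitosis. Protein levels were not measured. Of 12 transcription factors and coactivators that act on MYCN, 9 fell and 3 (GATA3, TBX2 and EP300) rose, with a median LFC of -0.24. The cell cycle factors E2F2 (LFC -3.21) and E2F1 (LFC -3.15) fell most. A motif of E2F factors is marked in the promoter above, and binding of E2F to it was not tested.

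Of 20 genes that MYC proteins are known to activate, 18 fell and 2 (AHCY and ID2) rose, with a median LFC of -0.65. LDHA, an enzyme of glycolysis (784 to 241 CPM, LFC -1.70), MCM7, a subunit of the replication helicase (LFC -1.44), and PAICS, an enzyme of purine synthesis (LFC -1.43), fell most. The LFCs of all 3 were below that of MYCN. Of 11 genes that MYC proteins are known to repress, 7 rose, 3 (TXNIP, CLU and DKK3) fell and NDRG2 was not called, with a median LFC of 0.58. CDKN1A, a cell cycle inhibitor (32.8 to 1679 CPM, LFC 5.68), GADD45A, a gene of growth arrest (LFC 2.84), and NGFR, a neurotrophin receptor (LFC 1.47), rose most. CDKN1A and GADD45A are also known targets of p53.

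In the tRNA ligase complex, in which DDX1 works with the ligase RTCB, 6 of 7 genes fell and FAM98C rose (LFC 1.10), with a median LFC of -0.37. FAM98B (LFC -1.10) and FAM98A (LFC -0.55) fell most, and DDX1 itself had an LFC of -0.61. In the complexes that NBAS works with, 6 of 8 genes fell, USE1 rose (LFC 0.68) and SCFD1 was not called, with a median LFC of -0.23. ZW10 (LFC -1.02) and SCFD2 (LFC -0.42) fell most. RINT1, the third subunit of the tether, had an LFC of -0.10 and 0.03 with the offset for effective length.

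CYRIA rose while its paralog and most genes of the machinery it acts on fell. Of 11 genes with its relative CYRIB, RAC1 and the WAVE complex, 9 fell, CYFIP2 rose (LFC 2.24) and WASF1 was not called, with a median LFC of -0.34. WASF3 (LFC -1.06) and NCKAP1 (LFC -0.75) fell most of those. CYFIP2 is a WAVE subunit with a domain like that of CYRIA, and it went from 73.8 to 350 CPM.

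**Figure D4:**
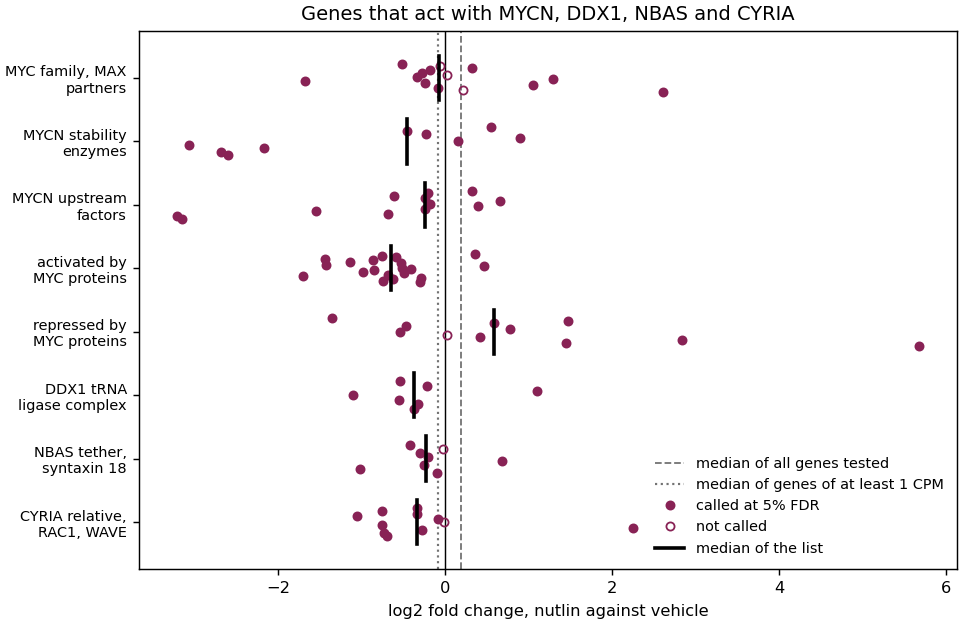
Log2 fold change of each gene in 8 lists, with filled points for genes called at 5% FDR, open points for genes not called, and a black bar at the median of a list. The 20 genes activated by MYC proteins have a median of -0.65 and the 11 repressed ones a median of 0.58, beside dashed and dotted lines at the medians of all genes tested (0.19) and of those of at least 1 CPM (-0.08).

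Genes whose pattern over the 20 samples was most like that of each of the 5 were sought among 15167 others. The measure was the root mean square difference of log2 CPM values, each taken relative to the vehicle mean of its gene, so that a small value means a like pattern. The closest to CYRIA were SESN1 (0.134), HSPA4L (0.167), ZBTB7B (0.176), ANKRD18A (0.185) and S100A11 (0.186), which rose by LFCs of 2.90 to 3.14. The closest to DDX1 were CCT2 (0.0321), CAP1 (0.0361), CCT6A (0.0386), TMBIM6 (0.0403) and CFAP36 (0.0467). CCT2 and CCT6A are subunits of the chaperonin that folds actin and tubulin.

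Among the closest to MYCN were DDX19B (0.0694), RCC2 (0.0719), CBS (0.0729) and MPST (0.0739), with LFCs of -0.37 to -0.44. MYCNOS came 894th and DDX1 2287th in this order. The measure grows with a difference in LFC and with the noise of either gene, so these places do not show whether neighbours respond together. For MYCNOS the closest were NDUFB11 (0.0953), MYL6B (0.0957), BEX2 (0.0983), RRP9 (0.0989) and FBL (0.0992), and MYCN came 147th. Among the closest to NBAS were FHOD3 (0.0562), KLF13 (0.0572), MAVS (0.0658) and TRAK1 (0.0677), with LFCs of -0.01 to 0.05.

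The samples held 14455477 to 19532971 estimated counts each, and 95.7% to 96.8% of these matched the annotation. All 10 markers of sympathetic neuroblasts were at 1 TPM or more in the vehicle mean, with sums of 2912 to 3346 TPM in vehicle and 3489 to 4479 TPM in nutlin samples. None of 8 markers of other cell types reached 1 TPM in the vehicle mean, with sums of 1.84 to 3.32 TPM and 4.75 to 9.76 TPM, the highest being CD68 at 4.29 TPM with nutlin, while HBB was at 0 in every sample. The part of these shifts in the results was not tested.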

How the data were processed

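RNA-seq of 10 vehicle and 10 nutlin samples of NGP cells was used, grouped by their labels. The authors ran kallisto 0.42.4 on GRCh38 transcripts. The deposited estimated counts are the read pairs that the authors' runs assigned to each of 198968 transcripts, with no normalization. The deposited TPM values are these counts as the authors' runs scaled them by effective length and depth. The effective lengths entered 1 alternative only. Transcripts were matched to GENCODE release 44, a later annotation than that of the authors (7862 transcripts were not matched), and summed by gene. Samples held 14455477 to 19532971 counts.

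Counts were rounded, and the 27697 genes that reached a total of 1 in both conditions were tested with edgeR 4.0.16 in R 4.3.3 (quasi-likelihood F-test, TMM, condition as the only term), with Benjamini-Hochberg adjustment over all genes at 5% FDR. The same fit was made for transcripts, and shares within a gene were tested with diffSpliceDGE of edgeR after filterByExpr (minimum count 10). Transcript responses were also computed with voom, filterByExpr and the block. The SE is the absolute LFC divided by the square root of F. Ratios within samples were compared by permutation tests with 100000 resamples. The scripts were tested on simulated data. Alternatives were DESeq2 1.42.0 size factors or test, limma 3.58.1 voom, other filters, an offset for effective length, the replicate number as a block, other library sizes, and MYCN summed with MYCNOS. Leaving out vehicle replicate 10 was added after the data were seen. Figures and tables were made with Python 3.11.15.

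The 5 genes, the lists and the tests were chosen with earlier results of these data known. Named were the 5 genes, transcripts of at least 5% of their gene, up to 3 called genes of each list with the largest absolute LFC at 1 CPM or more, every tested gene of 1 CPM or more within 2 Mb of MYCN, the 5 genes most like each in pattern (log2 CPM with a prior count of 2), and MDM2, except that 3 of the genes so chosen are not reported here. Promoter sequences came from RefSeq (GRCh38.p14), where 4 of the 5 genes had an entry, and junction sequences from the GRCh38 genome.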

Additional observations from a re-analysis of the deposited data

Results flagged for a closer look

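In 30 sets of 10 samples (the CPM of each of the 5 genes and the share of each main transcript, in each group), 4 values lay farther from the other samples of their group than Dixon's 95% limit. Chance gives such a value in about 1 of 20 sets. Of the 4, 3 came from vehicle replicate 10. DDX1 had 444 CPM there, against 358 to 389 CPM in the other vehicle samples. On the TPM scale its value there (181.7) lay inside the range of the other vehicle samples (164.6 to 190.1). CYRIA-202 made up 34.4% of CYRIA there, against 15.4% to 24.4%, and DDX1-205 made up 1.46% of DDX1, against 3.05% to 4.83%. In vehicle replicate 9, NBAS-206 made up 35.8% of NBAS, against 24.3% to 30.1%. Vehicle replicate 10 held 17867455 counts, near the middle of its group. Without it MYCN had an LFC of -0.40, MYCNOS of -0.31, DDX1 of -0.56, NBAS of 0.04 and CYRIA of 3.09, and the same 4 of these 5 genes were called.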

How the results depend on the processing

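MYCN, MYCNOS, DDX1 and CYRIA kept their direction and their call in every alternative run, with LFCs of -0.43 to -0.33 for MYCN, -0.37 to -0.26 for MYCNOS, -0.61 to -0.53 for DDX1 and 3.05 to 3.15 for CYRIA. MYCN and MYCNOS summed as 1 gene had an LFC of -0.41. The call of NBAS changed with the processing. Its LFC turned to -0.20 (edgeR adjusted p = 0.00058) with the offset for effective length and was 0.10 (adjusted p = 0.0169) with filterByExpr. Adjusted p ran from 0.00058 to 0.688 over its 10 alternatives. With filterByExpr the median LFC of the genes of at least 1 CPM moved from -0.08 to -0.00235, and without a filter beyond 1 count the median of all genes tested moved from 0.19 to 0.30, with other genes tested. With the offset, 2 genes in place of 1 rose among the partners of NBAS. No other list count moved by over 1.5 times. TPM rescaled to the matched transcripts gave vehicle means of 1787 for MYCN, 111 for MYCNOS, 199 for DDX1 and 23.0 for NBAS, as the unmatched transcripts then leave the total.

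Same-numbered samples did not pair. Over 8 shared numbers the correlations of their deviations ran from -0.0477 to 0.0773, and 0 vehicle samples correlated best with their own number. With the replicate block in 16 samples, 7519 genes were called higher and 6757 lower, against 8086 and 6906 in the same samples without it, and the 5 genes kept their calls. The depth of low transcripts such as NBAS-206 with nutlin (1.67 to 171 counts) limits how precisely their level is known.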

Other observations

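The minor transcripts of the 5 genes, each under 5% of its gene, were mostly not called. The exception among those tested was CYRIA-205, a transcript with a retained intron, which rose with the rest of CYRIA from 0.768 ± 0.324 to 9.93 ± 1.12 TPM (LFC 3.76, SE 0.227, edgeR adjusted p = 9.46e-12), with no overlap between the groups. DDX1-206 was at 3.29 ± 1.06 and 3.24 ± 0.997 TPM and was not called, while the main DDX1 transcripts fell. NBAS-203, which is annotated as a target of nonsense-mediated decay, had 0 counts in all 20 samples.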
